A study of Homo sapiens with 3 samples.

Results

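The genes described here are 10 genes of the innate response to double-stranded RNA: the sensors DDX58, IFIH1, TLR3 and EIF2AK2, the transcription factors IRF3 and IRF7, and the interferons IFNL1, IFNL2, IFNL3 and IFNB1. They were taken by gene name, each matched 1 row, and they are 10 of the 50867 genes of the deposited table. They were chosen with their values in these libraries known, among them the difference between the hairpins, so their own values are given as a description and without a test. Expression was measured by RNA sequencing of polyA+ RNA in cells of the established human line UM-UC-3, derived from a bladder carcinoma. Cells were infected with lentivirus carrying shRNA 2 or shRNA 1 against the long non-coding RNA BLACAT2 (group shBLACAT2, n = 2, 1 library per hairpin), or a scramble hairpin (shControl, n = 1, called the control here), and all 3 cultures were selected in puromycin for 2 weeks to give stable lines. The control therefore carries a lentiviral hairpin and the selection as well. Nothing in the labels says that any line was made or grown more than once.

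Double-stranded RNA in the cytoplasm is a mark of viral replication. DDX58 (RIG-I) and IFIH1 (MDA5) are cytoplasmic helicases that bind it and signal through the mitochondrial adaptor MAVS, while TLR3 detects it in endosomes and signals through TICAM1. Both routes lead to phosphorylation of IRF3 and IRF7, which switch on the genes of beta interferon (IFNB1) and of the lambda interferons (IFNL1, IFNL2 and IFNL3). EIF2AK2 (PKR) is a kinase that double-stranded RNA activates and that stops translation through eIF2. Secreted interferons act back through JAK and STAT proteins, and DDX58, IFIH1, TLR3, EIF2AK2 and IRF7 are themselves interferon-inducible, whereas IRF3 is regarded as constitutively expressed. Lambda interferons act mainly on epithelial cells, such as those that line the bladder.

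The libraries held 16216947 counts with shRNA 2, 17670199 with shRNA 1 and 16424422 in the control. BLACAT2 is listed as LINC00958 and had 1062, 816 and 938 counts in the same order. After scaling, its level relative to the control was 0.996 in the library labelled shRNA 2 (0.911 to 1.09, a 95% interval for counting error) and 0.735 in that labelled shRNA 1 (0.668 to 0.808). Depletion of the target was thus not detected in the library labelled shRNA 2. Every difference below is one between libraries so labelled. All 6 epithelial markers listed (such as KRT7, KRT8 and CDH1) had counts in every library. The 7 urothelial markers (such as UPK1B, GATA3 and UPK2) summed to 184 scaled CPM with shRNA 2, 286 with shRNA 1 and 102 in the control, and of these UPK1A and UPK3A had at most 1 count in any library. Of 11 leukocyte and plasmacytoid dendritic cell markers, 8, 6 and 6 had counts with shRNA 2, with shRNA 1 and in the control, with summed levels of 143, 158.5 and 184 scaled CPM, nearly all from CD74 and TCF4. PTPRC had 4, 3 and 0 counts, and CLEC4C and LILRA4 had 0 in all 3. Transcripts of the mitochondrial genome took 2.51%, 4.58% and 3.88% of the counts, and the part of these library differences in the results was not tested.

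The cytoplasmic sensors were highest with shRNA 2. DDX58 (ENSG00000107201; hg38, chromosome 9, 32455705 to 32526324, minus strand) had 6129 counts with shRNA 2, 2712 with shRNA 1 and 1662 in the control. As CPM, counts relative to library size after scaling by edgeR's TMM factors, this was 355, 151 and 109.5. The ratio to the control was 3.24 with shRNA 2 (95% counting interval 3.07 to 3.43) and 1.38 with shRNA 1 (1.30 to 1.47). In this bulk RNA, more RNA per cell and more cells that carry it cannot be told apart. Each interval was derived from the exact binomial interval of one library's share of the pair's counts and covers counting error only, since each hairpin has 1 library.

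IFIH1 (ENSG00000115267; chromosome 2, 162267079 to 162318703, minus strand) had the largest ratio of shRNA 2 to the control among the 4 sensors, with 5559 counts with shRNA 2, 2098 with shRNA 1 and 907 in the control, or 322, 117 and 59.75 scaled CPM. It was 5.39 times the control with shRNA 2 (5.02 to 5.79) and 1.96 times with shRNA 1 (1.81 to 2.12). The shRNA 1 library thus lay between the other two for both helicases. Their ratio to each other, which needs no scaling between libraries, also differed: IFIH1 had 0.907 counts per DDX58 count with shRNA 2 (0.875 to 0.941), 0.774 with shRNA 1 (0.730 to 0.819) and 0.546 in the control (0.503 to 0.592).

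TLR3, the endosomal sensor (ENSG00000164342; chromosome 4, 186069152 to 186088069, plus strand), was the sensor with the smallest difference between the hairpins. It had 348 counts with shRNA 2, 295 with shRNA 1 and 94 in the control, or 20.2, 16.4 and 6.19 scaled CPM. Both hairpin libraries stood above the control, at 3.26 times (2.59 to 4.13) with shRNA 2 and 2.65 times (2.10 to 3.38) with shRNA 1. The mean log2 fold over the control was 1.54 ± 0.21 (SD, n = 2 hairpins), larger than the spread between them. The hairpins lay farther apart for IFIH1 (1.70 ± 1.03) and DDX58 (1.08 ± 0.87).

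EIF2AK2 (ENSG00000055332; chromosome 2, 37099210 to 37157065, minus strand) had the most counts of the 10 genes, 9339 with shRNA 2, 4887 with shRNA 1 and 3490 in the control. This was 541, 272 and 229.9 scaled CPM, 2.35 times the control (2.26 to 2.45) with shRNA 2 and 1.18 times (1.13 to 1.24) with shRNA 1, with a mean log2 fold of 0.74 ± 0.70 (SD, n = 2). Its row overlaps GPATCH11 on the other strand by 35 bases, and the strand setting of the authors' counting is not given in the sources used here. GPATCH11 had 312, 476 and 514 counts, the opposite order.

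The IRF factors differed from each other. IRF7 (ENSG00000185507; chromosome 11, 612553 to 615999, minus strand) had 3844 counts with shRNA 2, 1165 with shRNA 1 and 925 in the control, or 223, 64.85 and 60.9 scaled CPM. The shRNA 2 library stood alone at 3.66 times the control (3.40 to 3.93), while the shRNA 1 library was at 1.06 times (0.976 to 1.16), an interval that includes 1. IRF3 (ENSG00000126456; chromosome 19, 49659569 to 49665875, minus strand) had 808, 1214 and 931 counts in the same order, or 46.8, 67.6 and 61.3 scaled CPM, and was the 1 gene of the 10 that was lowest with shRNA 2. It was 0.763 times the control with shRNA 2 (0.694 to 0.840) and 1.10 times with shRNA 1 (1.01 to 1.20), a mean log2 fold of −0.12 ± 0.37 (SD, n = 2) that was smaller than the spread between the hairpins. IRF3 shares 734 bases with BCL2L12 on the other strand, which had 532, 623 and 616 counts. Inside each library, IRF7 had 4.76 counts per IRF3 count with shRNA 2 (4.41 to 5.14), 0.960 with shRNA 1 (0.885 to 1.04) and 0.994 in the control (0.906 to 1.09).

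**Figure D1:**
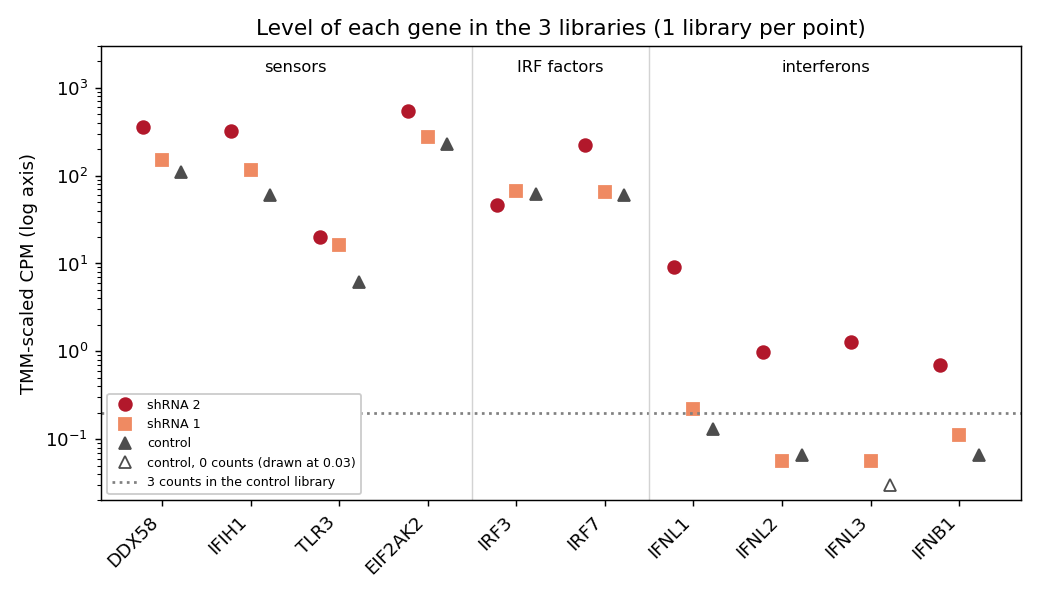
Level of each of the 10 genes in TMM-scaled CPM on a log axis, with 1 point per library: shRNA 2, shRNA 1 and control from left to right; the dotted line marks 3 counts in the control. With shRNA 2 the interferons lie between 0.695 and 9.04 scaled CPM, while with shRNA 1 and in the control they lie below the dotted line except IFNL1 with shRNA 1 (0.223; the open triangle stands for 0 counts), and IRF3 alone is lowest with shRNA 2.

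Transcripts of the 4 interferon genes had more than 4 counts only in the library labelled shRNA 2. IFNL1 (ENSG00000182393; chromosome 19, 39296325 to 39298673, plus strand) had 156 counts with shRNA 2, 4 with shRNA 1 and 2 in the control. It was 68.6 times the control with shRNA 2 (18.7 to 572) and 40.6 times the shRNA 1 library (15.5 to 151). Its ratio of 1.69 for shRNA 1 over the control had an interval of 0.242 to 18.7, which includes 1. IFNL2 (ENSG00000183709; chromosome 19, 39268514 to 39270092, plus strand) had 17, 1 and 1 counts, and IFNL3 (ENSG00000197110; chromosome 19, 39243553 to 39245129, minus strand) had 22, 1 and 0.

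A floor of 3 counts in a library, which is 0.174, 0.167 and 0.198 scaled CPM with shRNA 2, with shRNA 1 and in the control, was used where a count was 0. With shRNA 2, IFNL2 was 14.95 times the control (2.34 to 625). IFNL3 was at 6.45 times the floor of the control, and the lower counting limit of its ratio to the control was 4.82. Over the shRNA 1 library the ratios were 17.7 (2.77 to 739) for IFNL2 and 22.9 (3.70 to 945) for IFNL3. Between shRNA 1 and the control no ratio is given for IFNL2, IFNL3 or IFNB1, since both libraries were at or under 3 counts. Summed over the 3 lambda genes, the libraries held 195, 6 and 3 counts, which made shRNA 2 33.8 times shRNA 1 (15.3 to 93.3) and 57.2 times the control (19.3 to 280).

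IFNB1 (ENSG00000171855; chromosome 9, 21077105 to 21077963, minus strand) had 12 counts with shRNA 2, 2 with shRNA 1 and 1 in the control. The ratio of shRNA 2 was 10.55 to the control (1.56 to 451) and 6.25 to shRNA 1 (1.39 to 57.45), so the sizes are known only loosely. Most other interferons listed were near 0. Of 13 interferon alpha genes, 9 had no count in any library, and all 13 together had 2, 6 and 4 counts. IFNL4, IFNW1, IFNK and IFNG had at most 2 counts in any library. IFNE, an interferon known for constitutive expression in epithelium of the reproductive tract, had 8 counts with shRNA 2, 33 with shRNA 1 and 23 in the control. It lies inside the long non-coding RNA gene MIR31HG on the same strand, with which it may share reads, and which had 18, 64 and 57 counts.

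Reads of the lambda genes can be hard to place because the genes are copies of each other. In GENCODE release 29 the longest transcripts of IFNL2 and IFNL3 were identical at 97.6% of 737 aligned bases, and 32.0% of the 50-base windows of IFNL2 and 33.0% of those of IFNL3 also occurred in another lambda gene's transcript (5.17% and 5.20% of 100-base windows). None of the 808 such windows of IFNL1 did. How the authors counted reads that match several genes is not given in the sources used here, so the values of IFNL2 and IFNL3 are uncertain between these copies. Of the 195 lambda counts with shRNA 2, IFNL1 held 80.0% (exact binomial interval 73.7% to 85.4%), IFNL3 11.3% and IFNL2 8.72%. The pseudogene IFNL3P1, 6.26 kb from IFNL3, had 8 counts with shRNA 2, 0 with shRNA 1 and 1 in the control.

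The similarity extends to the sequence before the start sites, shown here because it holds the short motifs that IRF and NF-kappaB factors are known to bind and because the 4 interferon transcripts were counted mainly in the same library. The sequences are RefSeq promoter windows (GRCh38.p14), 5′ to 3′ on the strand of each gene: IFNL1 from chr19:39296157-39296324 on the plus strand, IFNL2 from chr19:39268146-39268395 on the plus strand, IFNL3 from chr19:39245251-39245500 on the minus strand and IFNB1 from chr9:21077964-21078192 on the minus strand. Only bases before both the RefSeq start site and the deposited gene's edge are printed. Capitals mark matches to any of 3 motifs on either strand. The ISRE-like motif, after the interferon-stimulated response element, is GAAA, then any 2 bases, then GAAA. The IRF core is AANNGAAA, and every ISRE-like match contains one. The kappaB-like motif is GGGA, then any 2 bases, then TTCC.
IFNL1: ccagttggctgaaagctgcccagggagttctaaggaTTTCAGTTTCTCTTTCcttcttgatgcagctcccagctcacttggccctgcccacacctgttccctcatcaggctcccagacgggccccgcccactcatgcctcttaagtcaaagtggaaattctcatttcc
IFNL2: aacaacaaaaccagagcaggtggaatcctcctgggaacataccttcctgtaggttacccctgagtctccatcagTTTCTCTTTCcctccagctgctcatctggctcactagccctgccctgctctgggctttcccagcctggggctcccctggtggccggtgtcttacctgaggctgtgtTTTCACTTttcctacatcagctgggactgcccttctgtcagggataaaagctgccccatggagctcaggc
IFNL3: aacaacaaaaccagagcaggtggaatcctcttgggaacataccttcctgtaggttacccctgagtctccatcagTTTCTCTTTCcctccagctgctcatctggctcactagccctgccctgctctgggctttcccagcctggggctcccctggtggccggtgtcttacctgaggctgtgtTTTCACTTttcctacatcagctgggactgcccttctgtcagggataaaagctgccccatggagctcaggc
IFNB1: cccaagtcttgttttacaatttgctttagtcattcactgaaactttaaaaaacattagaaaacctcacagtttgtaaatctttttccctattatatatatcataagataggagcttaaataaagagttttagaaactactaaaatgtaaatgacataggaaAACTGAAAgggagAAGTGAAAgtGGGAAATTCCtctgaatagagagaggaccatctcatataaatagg

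The 300-base windows of IFNL2 and IFNL3 were identical at 299 of 300 bases. The 1 difference was C31T, with IFNL2 first and positions counted from 1 at the 5′ end of the printed sequence. Against IFNL1 they were identical at 49.4% of aligned bases. In the full windows, which reach 50 bases past the start site, IFNL1 held 2 overlapping ISRE-like matches and 3 of the IRF core, and IFNL2 and IFNL3 each held 1 and 2 at the same positions. IFNB1 held no ISRE-like match, 2 of the IRF core and 1 kappaB-like match at 66 to 57 bases before its start site. The lambda windows held no kappaB-like match of these letters. Among all 35116 promoter windows, 3.57% held an ISRE-like match, 22.8% an IRF core and 1.61% a kappaB-like match. A match describes letters and is not a measured site.

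The sensors' windows were searched in the same way, and 60-base stretches of IFIH1 (chr2:162318810-162318869, minus strand) and DDX58 (chr9:32526366-32526425, minus strand) are shown as the stretches around the first matches in these helicase genes. Capitals have the same meaning.
IFIH1: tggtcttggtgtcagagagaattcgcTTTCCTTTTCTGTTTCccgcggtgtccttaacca
DDX58: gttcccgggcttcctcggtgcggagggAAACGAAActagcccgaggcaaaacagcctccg

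The full window of IFIH1 held 3 ISRE-like matches and 4 of the IRF core, and that of DDX58 held 3 of the IRF core and no ISRE-like match. Both held 1 kappaB-like match. EIF2AK2 held 1 ISRE-like match at 6 bases before to 3 bases after its start site, and TLR3 held 1 at 4 before to 5 after. Promoter windows were found for 8 of the 10 genes, and IRF3 and IRF7 had none. The IRF core was present in all 8, and an ISRE-like match in 6 of the 8, all but DDX58 and IFNB1. IFNL3 has a second RefSeq start site, whose window held no match.

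**Figure D2:**
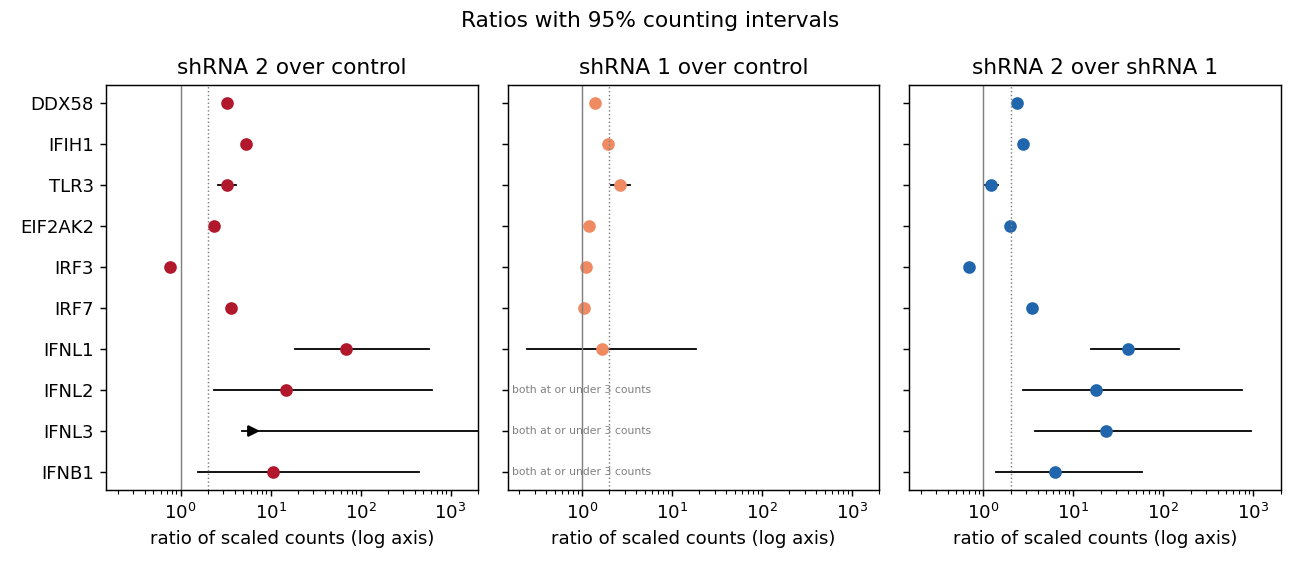
Ratios of TMM-scaled counts on a log axis for the 10 genes, with 95% counting intervals as lines. The panels show shRNA 2 over control, shRNA 1 over control and shRNA 2 over shRNA 1. The dotted line marks 2-fold, and the arrow marks IFNL3 over a floor of 3 counts in the control, which had 0. The interferons' intervals are wide, reaching 945 for IFNL3 over shRNA 1, while those of DDX58, IFIH1, EIF2AK2 and IRF7 are narrower than their distance from 1 in both panels that have shRNA 2 on top.

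With a threshold of 2-fold on log2 CPM with a prior count of 2, 7 of the 10 genes had a mean of at least 1 CPM and could be set beside all 15132 genes at that level. IFNL1 passed that minimum only through the shRNA 2 library, and IFNL2, IFNL3 and IFNB1 did not pass. With shRNA 2, 6 of the 7 (all but IRF3) were at least 2-fold higher than the control, beside 13.0% of all genes. With shRNA 1 this held for TLR3 alone, beside 7.92% of all genes, and TLR3 was also the 1 gene of the 7 past that size with both hairpins (5.29% of all genes). IFIH1 just missed it with shRNA 1, at a log2 fold of 0.97 against 1.10 when library totals were used as the scaling. For shRNA 2 over shRNA 1, DDX58 (log2 1.23), IFIH1 (1.46), IRF7 (1.78) and IFNL1 (4.74) were past 2-fold, beside 8.35% of all genes. EIF2AK2 lay at the threshold with 0.99 (1.06 with library totals), TLR3 at 0.29 and IRF3 at −0.53. None of the 7 was at least 2-fold lower with shRNA 2 (8.76% of all genes), with shRNA 1 (7.38%), with both (4.5%) or for shRNA 2 over shRNA 1 (4.48%). With library totals, 2555 of all genes were higher and 968 lower with shRNA 2, against 1962 and 1325 with TMM scaling. Because the genes were chosen on these same contrasts, nothing is read from the counts. The comparisons with the control share 1 control library.

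Per gene length, on the authors' deposited FPKM scale, DDX58 was the highest of the 10 genes in every library, at 84.0 FPKM with shRNA 2, 34.1 with shRNA 1 and 22.5 in the control. IFIH1 stood above EIF2AK2 with shRNA 2 (60.4 and 40.5 FPKM) and under it in the control (9.73 and 14.9 FPKM). With shRNA 1 they were close, at 20.9 and 19.4 FPKM. IRF7 came next in each library, with 26.3, 7.32 and 6.25 FPKM. With shRNA 2, IFNL1 at 11.2 FPKM stood above IRF3 at 3.62 and TLR3 at 2.03. With shRNA 1 and in the control it lay below both, at 0.264 and 0.142 FPKM. IFNL2, IFNL3 and IFNB1 had 1.42, 1.26 and 0.861 FPKM with shRNA 2, and with 17, 22 and 12 counts their order is not resolved.

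The surroundings of the interferon genes were counted in all 3 libraries. Of 75 genes of the table within 2000 kb of IFNB1, 27 had no count in any library and 15 had at least 10 counts in each. The nearest of these were FOCAD, 81.1 kb to one side, with 259 counts with shRNA 2, 582 with shRNA 1 and 321 in the control, and KLHL9, 252 kb to the other side within the interferon cluster, with 523, 481 and 545. HACD4, between FOCAD and IFNB1, had 7, 5 and 45 counts, and the pseudogene IFNNP1 had none. Of 24 genes within 200 kb of the lambda genes, 4 had no count and 11 had at least 10 in each library. LRFN1, 7.89 kb from IFNL1, had 67, 95 and 91 counts and PAK4 on the other side 615, 842 and 703, so that neither was highest with shRNA 2. PAPL, 132 kb away, had 215, 102 and 52 counts; these 3 were chosen after their values were seen.

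**Figure D3:**
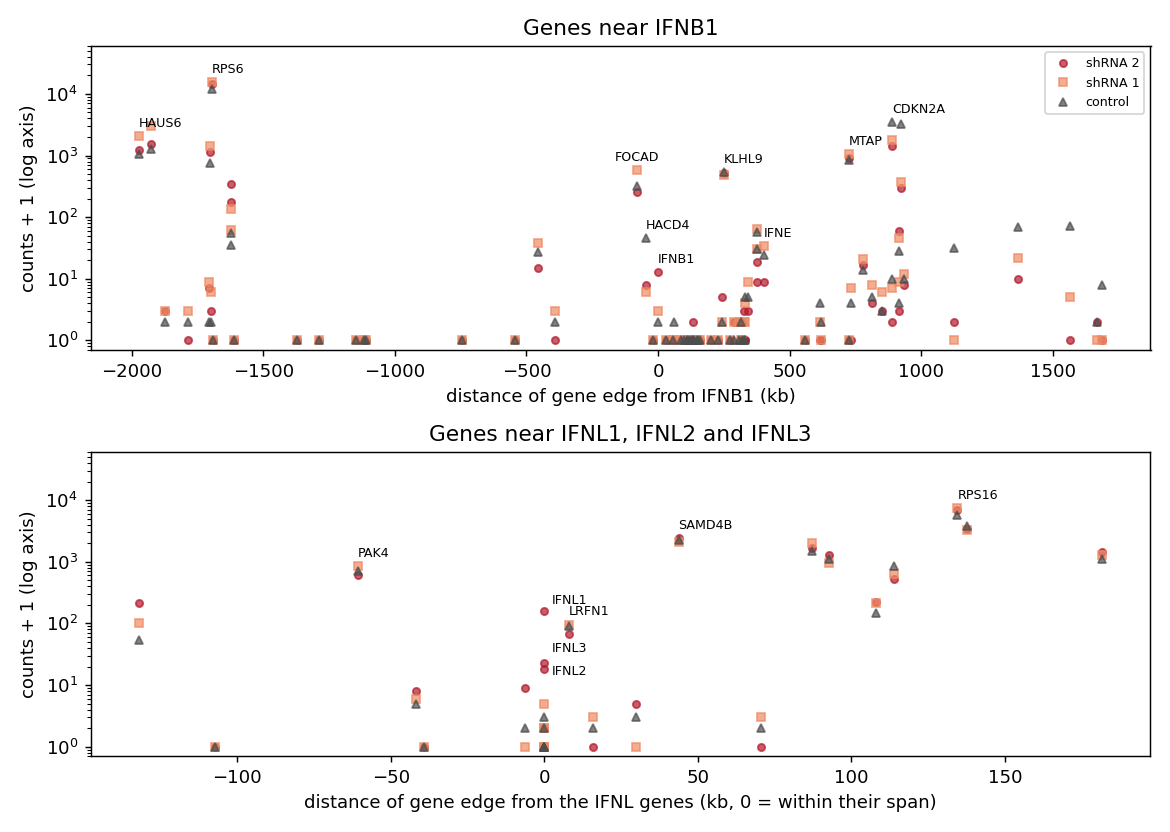
Counts plus 1 on a log axis for genes near IFNB1 (upper panel) and near the lambda interferon genes (lower panel), against the distance of the gene's nearer edge in kb; 3 points per gene, 1 for each library. IFNB1 reaches 12 counts and IFNL1 156 counts with shRNA 2, while HACD4 (7, 5 and 45 counts with shRNA 2, with shRNA 1 and in the control) and FOCAD (259, 582 and 321) near IFNB1, and LRFN1 (67, 95 and 91) near IFNL1, are not highest with shRNA 2.

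Genes whose pair of log2 folds (shRNA 2 and shRNA 1 over the control) lay nearest by Euclidean distance were looked up over the 3 libraries, which is a description with no test. For the summed lambda genes, at log2 folds of 5.17 and 0.52 that depend on the prior count because the control held 3 counts, these were LINC01133 (113, 6 and 2 counts with shRNA 2, with shRNA 1 and in the control), CALCB (48, 1 and 0), MUC2 (1009, 28 and 25), LINC00675 (61, 3 and 0) and NR1I2 (69, 4 and 1), at distances of 0.554 to 0.787. For DDX58, at 1.70 and 0.46, they were IDNK, FAM86B3P, MDM4, RP11-44N21.1 and PRSS8, at 0.00221 to 0.0706. For IFIH1, at 2.43 and 0.97, they were SERPINB9P1, AC005336.4, ACER2, RP4-646N3.1 and CYP4F8, at 0.0424 to 0.136.

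Other genes of the pathway were taken from 11 lists of 163 genes, of which 140 had a mean of at least 1 CPM. The shBLACAT2 group was tested against the control with edgeR's quasi-likelihood test and Benjamini-Hochberg adjustment, which passed none of the 140 and 6 of all 15132 genes (0.0397%). At an unadjusted p below 0.05 there were 13 of the 140, beside 10.2% of all genes, and DESeq2 passed 5 of the 140, beside 3.49% of all genes: DDX60, IFIT2, IFIT3 and PMAIP1, which were higher, and JUN, which was lower (IFIT2 was named after its values were seen). By size, 36 of the 140 stood 2-fold or more above the control with shRNA 2 and 4 below it (13.0% and 8.76% of all genes). With shRNA 1, 9 were higher and 4 lower (7.92% and 7.38%), and for shRNA 2 over shRNA 1, 31 were higher and 2 lower (8.35% and 4.48%). The median log2 folds of the 140 were 0.16 and −0.02 over the control, beside 0.04 and 0.01 for all genes.

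Among 19 measured sensors of RNA and DNA other than the 4 above, 10 passed the 2-fold threshold upward with shRNA 2 (13.0% of all genes). With shRNA 1, 2 passed it upward (7.92%), and none passed it downward with either hairpin (8.76% and 7.38%). Their median log2 folds were 1.06 and 0.21. OAS2, an interferon-inducible oligoadenylate synthetase, had 10675 counts with shRNA 2, 3308 with shRNA 1 and 2265 in the control, and OAS3 of the same family 20753, 9416 and 7163. DDX60, a helicase linked to RIG-I signalling, had 6651, 2759 and 986 counts and was past 2-fold with both hairpins (log2 2.57 and 1.24). ZNFX1 was higher with shRNA 2 alone, at 9213, 3682 and 3879 counts.

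The steps between sensors and interferons were covered by lists of adaptors, kinases and regulators. Of 18 adaptors and kinases, 1 was past 2-fold higher with shRNA 2 (13.0% of all genes) and none with shRNA 1 (7.92%). None was past 2-fold lower with either hairpin (8.76% and 7.38%), and the median log2 folds were 0.07 and −0.03. The gene past 2-fold was IKBKB, an NF-kappaB kinase, with 942 counts with shRNA 2, 807 with shRNA 1 and 403 in the control. MAVS had log2 folds of 0.10 and 0.47, TICAM1 0.63 and −0.04 and TBK1, the kinase that phosphorylates IRF3, −0.22 and −0.04; these 3 were chosen after their values were seen. Among 19 regulators of the RIG-I-like receptors, 3 were past 2-fold higher with shRNA 2, beside 13.0% of all genes. These were ZC3HAV1, an antiviral RNA-binding protein (log2 1.18 and −0.16), TRIM14 (1.00 and 0.08) and RNF125 (2.60 and 1.09, on 45, 15 and 5 counts). RNF125 was named after its values were seen. NLRC5 was at 0.76 and −0.53. TNFAIP3, an inhibitor of NF-kappaB, had 3785 counts with shRNA 2, 1944 with shRNA 1 and 3954 in the control.

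Other IRF factors were led by IRF1, which had 2583 counts with shRNA 2, 2859 with shRNA 1 and 997 in the control. This put it past 2-fold with both hairpins (log2 1.19 and 1.28) and close to no difference between them (−0.09), unlike IRF7. IRF5 was at 1.18 and 0.52 and IRF8 at 1.15 and 0.60. Of 8 measured factors, 3 were past 2-fold higher with shRNA 2 and none lower (13.0% and 8.76% of all genes). The IFNB1 enhancer is a cluster of sites for NF-kappaB, IRF and ATF2-JUN proteins. Of its 10 listed factors, 1 was past 2-fold lower with both hairpins (4.5% of all genes). This was JUN, with 842 counts with shRNA 2, 989 with shRNA 1 and 2704 in the control. KAT2B was at 0.84 and 1.15, the 1 factor past 2-fold higher with shRNA 1 (7.92% of all genes). The list medians were −0.03 and −0.30. RELA, chosen after its values were seen, was at −0.26 and −0.46.

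Downstream of the interferons, both subunits of the lambda receptor were counted. IFNLR1 had 257 counts with shRNA 2, 241 with shRNA 1 and 230 in the control, and IL10RB had 217, 306 and 237, so receptor transcripts differed by less than 2-fold; both were chosen after their values were seen. Among the 12 receptor and JAK-STAT genes, STAT2 was past 2-fold higher with shRNA 2 (log2 1.34 and −0.06) and JAK1 was past 2-fold lower (−1.05 and −0.86). The feedback genes ISG15 and USP18 were at 2.42 and 2.29 with shRNA 2, and at −0.38 and −0.04 with shRNA 1. PIAS3 was at −1.10 and −0.17 and SOCS1 at −0.03 and −1.04. Of 10 genes that IRF3 is known to activate directly, 9 were past 2-fold higher with shRNA 2 (13.0% of all genes) and 3 with shRNA 1 (7.92%). With shRNA 1, 1 was past 2-fold lower (7.38% of all genes). Whether IRF3 or interferon signalling accounts for these differences was not tested. The list's medians were 2.16 and 0.14. IFIT3 had 13413, 3772 and 1660 counts, IFIT1 7538, 1917 and 1429, RSAD2 5596, 961 and 264, and PMAIP1 3129, 2334 and 550.

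The last lists held genes that bind, process or limit double-stranded RNA or other nucleic acids, and genes that act with EIF2AK2. The first of these is labelled limiters of double-stranded RNA, but not all its genes act on double-stranded RNA itself, SAMHD1 among them. Of its 15 measured genes, 3 were past 2-fold higher with shRNA 2, beside 13.0% of all genes. These were PNPT1, the mitochondrial polynucleotide phosphorylase (log2 1.40 and −0.02), SAMHD1 (1.10 and 0.73) and the editing enzyme gene ADARB1 (1.13 and 1.39). ADAR, which edits double-stranded RNA and was picked after its values were known, had 18868 counts with shRNA 2, 11851 with shRNA 1 and 10206 in the control (0.70 and −0.03). Among 16 genes of the eIF2 pathway, 3 were past 2-fold higher with shRNA 2 (13.0% of all genes) and 0 with shRNA 1 (7.92%). ATF4 was at 1.18 and 0.68 and DDIT3 at 2.39 and 0.22. PPP1R15A, a phosphatase subunit that reverses eIF2 phosphorylation, was at 1.80 and −0.66, with 4115, 781 and 1042 counts. The other 13 were less than 2-fold from the control with both hairpins, and the list medians were −0.08 and −0.03.

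**Figure D4:**
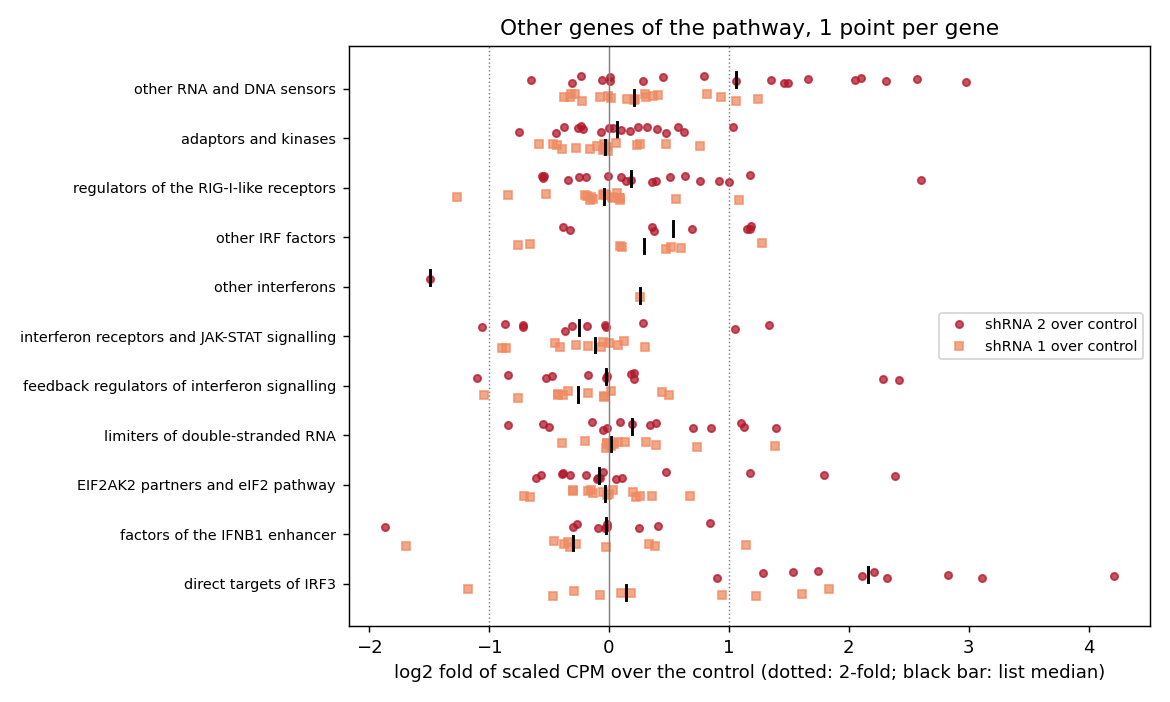
Log2 folds of scaled CPM over the control for the measured genes of the 11 pathway lists, 1 point per gene and hairpin, with shRNA 2 above shRNA 1 in each list, black bars at the medians and dotted lines at 2-fold. The direct targets of IRF3 (medians 2.16 and 0.14) and the other RNA and DNA sensors (1.06 and 0.21) lie to the right with shRNA 2, and most other lists are centred near 0.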

How the data were processed

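The deposited table gives, per gene and library, whole-number read counts and FPKM (counts per gene length and library size), both made by the authors. TopHat2 2.0.9 and hg38 are named, per the submitters' processing notes; the sources used here do not give the counting tool, strand setting, annotation or filters. The entry for TGFB1, spread over 4 lines, was omitted. The 15132 genes whose mean CPM was 1 or more entered the comparisons over all genes. Counts were scaled by TMM factors (1.06 for shRNA 2, 1.02 for shRNA 1, 0.924 for the control), and log2 folds used a prior count of 2. The group test was the quasi-likelihood test of edgeR 4.0.16, with Benjamini-Hochberg adjusted p below 0.05 and 1 residual degree of freedom. A run on simulated data required only that median log2 folds were recovered. Both hairpins were given the same fold there, unlike these data, so the run does not show how the p-values behave here. The single control library is taken to vary as the hairpin libraries do. DESeq2 1.42.0 was an alternative. The residual degree of freedom is the difference between the 2 hairpin libraries, so p-values reflect the spread between the hairpins. With 1 library per hairpin, that spread cannot be told apart from culture or technical differences. Intervals (95%) and floors (3 counts) cover counting error only.

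The 10 genes and the 11 lists were chosen with earlier results of these data known. Genes were named by rule: the 10 genes, then per list up to 4 genes at least 2-fold apart in any comparison by highest mean CPM or, with none, the 2 highest; others are given as chosen after their values were seen. Strands, gene types and transcripts come from GENCODE release 29, positions from the deposited table, and promoter windows from RefSeq (GRCh38.p14). Biopython 1.88 aligned sequences with end-to-end scoring. Some genes that the rule names are not reported here.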

Additional observations from a re-analysis of the deposited data

How the results depend on the processing

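The library labelled shRNA 2 shows no detected loss of the target, each hairpin has 1 library, and at this depth IFNL2, IFNL3 and IFNB1 are too sparse to order. No paired analysis was possible because the control is 1 library. Log2 folds and hairpin means of DDX58, IFIH1, TLR3, EIF2AK2, IRF3, IRF7, IFNL1 and the lambda sum gave 91 values under other settings. Of these, 69 stayed within their counting interval or the spread between hairpins and 22 moved more. The means left with 1 hairpin are among the 69 by construction, since with n = 2 each hairpin lies within the SD of the mean. For IRF7 the mean of 0.98 became 1.87 without the shRNA 1 library and 0.09 without the shRNA 2 library. The mean of IRF3 over both hairpins, −0.12, became 0.14 without the shRNA 2 library, and no other of the 91 changed sign. The 22 came from library totals and from deposited FPKM with a pseudocount of 0.01, 11 each. The same 11 folds moved under both, to nearly the same values (DDX58 with shRNA 2 over the control, 1.90 in both). FPKM is also relative to library size, so these are not independent moves. With library totals, the median over all genes became 0.24 for shRNA 2 and 0.14 for shRNA 1 on the log2 scale, against 0.04 and 0.01 with TMM. Under them IFIH1 joined TLR3, so that 2 of the 7 genes were past 2-fold higher with shRNA 1 and 2 with both hairpins, and of the pathway genes 2 were lower with shRNA 2 and 1 was lower for shRNA 2 over shRNA 1. Of all genes, without the low-level filter, 4052 were higher and 2806 lower with shRNA 2, 2357 and 2853 with shRNA 1, 3258 and 1427 for shRNA 2 over shRNA 1, and 1328 and 1491 with both hairpins. With a mean of at least 5 CPM, where fewer genes enter, 1145 were higher with shRNA 2, 765 higher and 662 lower with shRNA 1, 617 and 446 for shRNA 2 over shRNA 1, and 519 higher with both. The group test passed 0 genes without the filter (1461 at unadjusted p below 0.05 in edgeR), 0 at 5 CPM (1240) and 528 with DESeq2, against 6; the cause was not tested. Mean log2 folds left with 1 hairpin equal that hairpin's own value.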

Other observations

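On the far side of the interferon cluster from FOCAD, several genes had fewer counts with both hairpins than in the control; they were chosen after their values were seen. The cell cycle inhibitor genes CDKN2B and CDKN2A, 925 kb and 889.8 kb from IFNB1, had 297 and 1402 counts with shRNA 2, 374 and 1780 with shRNA 1, and 3241 and 3542 in the control. MTAP, 725 kb from IFNB1 and next to them, had 924, 1052 and 852 counts in the same order. The antisense gene CDKN2B-AS1, 917 kb from IFNB1, went the other way, with 58, 45 and 27 counts. LINC01239 had 0 counts with shRNA 2, 4 with shRNA 1 and 70 in the control, and DMRTA1 had 9, 21 and 68. ACER2, 1625 kb to the other side and among the 5 genes nearest to IFIH1 in its log2 folds, had 349, 136 and 55 counts.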
